A study of Emiliania huxleyi CCMP1516 with 36 samples.

Results

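PYC1 and IDH1 are a pair of genes of *Emiliania huxleyi*, a unicellular calcifying alga of the open ocean, that were followed here across every condition of an exposure experiment. They are 2 of the 37212 genes in the deposited table of estimated counts, and both passed the filter on low counts that left 26494 genes for testing. They were chosen by their levels in 3 kinds of culture, which the same measurements gave: both were high in the parent cultures, low with vehicle, and higher again after 72 h with the highest dose of HHQ. Differences that involve the parent, vehicle or high-dose 72 h cultures are therefore given as descriptions with no test. PYC1 carries the locus tag EMIHUDRAFT_558314 and IDH1 the locus tag EMIHUDRAFT_450594 in the RefSeq annotation of the organism, and both are listed there as protein-coding.

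HHQ is 2-heptyl-4-quinolone, an alkylquinolone that certain marine and other bacteria release. Bacteria-free cultures, all of strain CCMP2090, were exposed to HHQ in doses of 1, 10 and 100 ng/ml. Control cultures had only the vehicle, 0.002% DMSO. Cells were collected after 24 and 72 h for sequencing of polyadenylated RNA. The parent cultures, taken at time 0 and given no treatment, had served to inoculate the others. Each of the 9 groups had 4 biological replicates, which makes 36 libraries. The groups are called HHQ 1, HHQ 10, HHQ 100, vehicle and parent below.

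Pyruvate carboxylase is a biotin-dependent enzyme that adds bicarbonate to pyruvate to give oxaloacetate, and so refills the tricarboxylic acid (TCA) cycle when its intermediates are withdrawn for synthesis. Isocitrate dehydrogenase turns isocitrate into 2-oxoglutarate and yields NADH in the TCA cycle or, in other forms of the enzyme, NADPH. Its product is the carbon skeleton on which cells assimilate ammonium into glutamate. These roles are read from the gene symbols, and enzyme activity was not measured.

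Library totals ran from 5679128 to 42602884 estimated counts. The lowest PYC1 value was 9 counts in HHQ 1 replicate 2 at 72 h, with a 95% Poisson interval of 4.12 to 17.1 counts. The lowest IDH1 value was 13 counts in HHQ 1 replicate 3 at 72 h, with an interval of 6.92 to 22.2 counts. These intervals cover counting error only. Both genes had whole-number values in 36 of 36 libraries, in a table where 45.8% of all values were not whole. Replicates did not scatter evenly. At 24 h replicate 4 lay farthest from its group mates in all 4 groups, at 0.782 to 1.15 root-mean-square log2 units. At 72 h replicates 1 and 2 lay farther from replicates 3 and 4 than from each other in all 4 groups.

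PYC1 and IDH1 were far lower in vehicle cultures at 24 h than in the parent cultures. PYC1 stood at 1.95, 2.00, 1.89 and 2.58 CPM (counts scaled to each library's total, corrected by TMM factors) in vehicle replicates 1 to 4, against 204, 205, 186 and 192 CPM in the parent replicates. IDH1 stood at 4.16, 5.11, 10.6 and 12.9 CPM in the vehicle libraries and at 568, 544, 509 and 498 CPM in the parent libraries. For each gene the highest vehicle library lay far below the lowest parent library. The log2 fold change was −6.55 ± 0.27 for PYC1 and −6.02 ± 0.43 for IDH1, where the value after ± is the standard error (SE) of the fit and n was 4 per group. These correspond to 93.8-fold and 64.8-fold lower levels. Over all tested genes, 10.6% were lower in every vehicle library than in every parent library, and since the rule used this contrast nothing is read from that share. In RNA from whole cultures, fewer cells that express a gene and less RNA per cell cannot be told apart.

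Vehicle cultures were lower still at 72 h. PYC1 had 0.940, 1.23, 1.07 and 1.01 CPM in the vehicle libraries at 72 h, all below the vehicle libraries at 24 h, with a log2 fold change of −0.97 ± 0.30 between the times. IDH1 had 1.69, 2.95, 3.00 and 4.34 CPM at 72 h, where the highest library slightly exceeded the lowest one at 24 h, and its log2 fold change was −1.45 ± 0.45. As a share of the parent mean, PYC1 was at 0.539% at 72 h and 1.07% at 24 h, and IDH1 at 0.565% at 72 h and 1.55% at 24 h. In this comparison 5.42% of all genes had every library lower at 72 h than at 24 h.

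**Figure D1:**
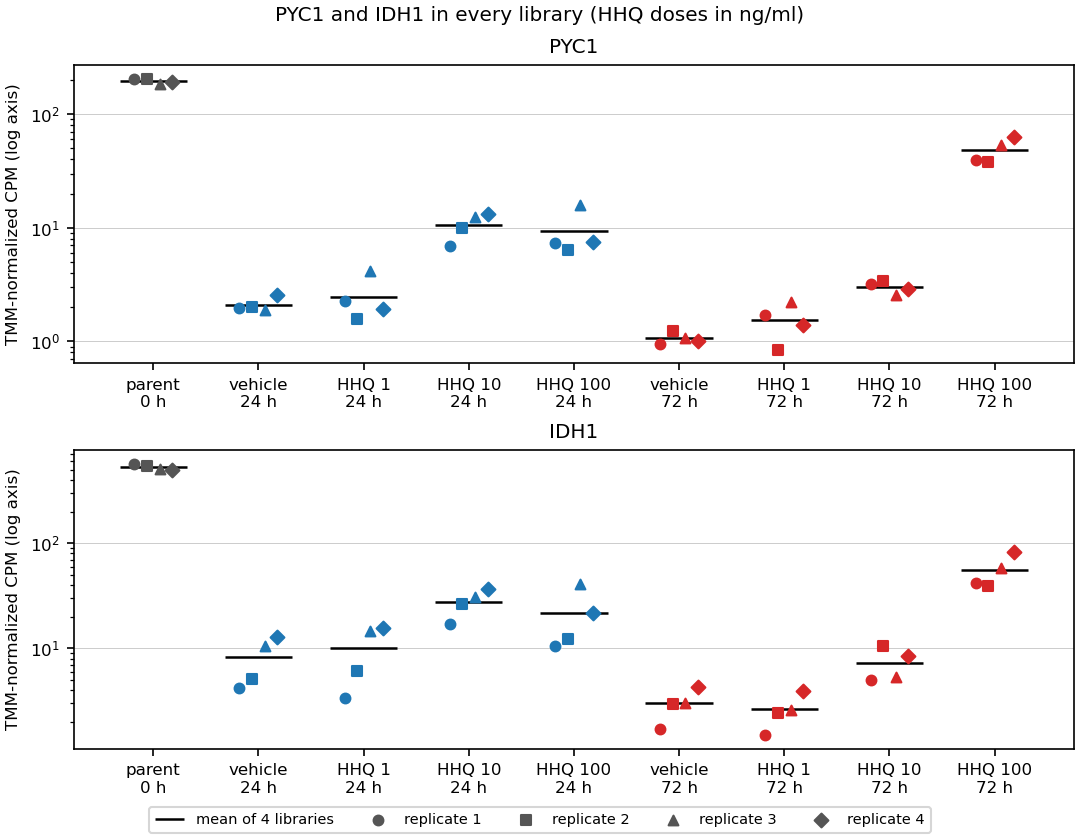
TMM-normalized CPM of PYC1 (top) and IDH1 (bottom) on log axes in each of the 36 libraries, with 1 symbol per replicate number and a bar at the mean of 4 libraries; blue is 24 h, red 72 h and grey time 0. The parent libraries were the highest and the 4 HHQ 100 libraries at 72 h (38.0 to 62.4 CPM for PYC1, 38.9 to 82.9 for IDH1) lay above every other treated library for PYC1 and overlapped a single 24 h library, HHQ 100 replicate 3, for IDH1.

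The lowest dose left both genes at levels that overlapped those of the vehicle libraries. At 24 h HHQ 1 libraries held 2.25, 1.58, 4.13 and 1.94 CPM of PYC1 and 3.37, 6.15, 14.8 and 15.7 CPM of IDH1. Their log2 fold changes against vehicle were 0.28 ± 0.29 and 0.29 ± 0.44. At 72 h HHQ 1 libraries held 1.69, 0.842, 2.21 and 1.41 CPM of PYC1 and 1.5, 2.43, 2.61 and 3.96 CPM of IDH1, with log2 fold changes of 0.48 ± 0.33 and −0.20 ± 0.48. The groups overlapped for both genes at both times. The HHQ 1 fold changes at 24 h changed sign for both genes with library-total scaling.

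At 24 h the 10 ng/ml dose was the first at which both genes stood above vehicle. PYC1 had 6.93, 9.99, 12.4 and 13.3 CPM in HHQ 10 and 7.38, 6.42, 15.96 and 7.57 CPM in HHQ 100. All 8 of these libraries exceeded the vehicle libraries, by 2.34 ± 0.27 and 2.15 ± 0.27 log2 units. IDH1 had 16.99, 26.6, 31.1 and 36.96 CPM in HHQ 10, above every vehicle library, and 10.6, 12.3, 41.3 and 21.9 CPM in HHQ 100, which overlapped vehicle. Its log2 fold changes against vehicle were 1.77 ± 0.43 and 1.39 ± 0.43. Among all genes, 10.3% in HHQ 10 and 24.3% in HHQ 100 were higher in every treated library than in every vehicle library at 24 h. These comparisons share the vehicle libraries.

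Differences between the doses at 24 h involve none of the cultures that chose the genes and were tested. PYC1 rose in HHQ 10 relative to HHQ 1, with a log2 fold change of 2.07 ± 0.28 and no overlap between the libraries (edgeR quasi-likelihood test, adjusted p = 2.98e-06). IDH1 rose by 1.48 ± 0.43 in the same comparison, again without overlap (edgeR, adjusted p = 0.0149). Of all tested genes 25.4% passed the threshold there, 14.4% as higher, and by fold change PYC1 ranked 942 and IDH1 1737 of 26494 from the top. IDH1's call was lost without a single library, HHQ 1 replicate 2, where its adjusted p was 0.0618 (edgeR). It held in 16 of 17 alternatives.

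HHQ 100 was also higher than HHQ 1 at 24 h for PYC1, by 1.87 ± 0.28 log2 units with no overlap (edgeR, adjusted p = 3.53e-06). IDH1 rose by 1.11 ± 0.43 (edgeR, adjusted p = 0.0339), and its libraries overlapped. In this comparison 53.4% of all genes passed, 28.9% as higher. The IDH1 call did not hold without HHQ 100 replicate 3, where its log2 fold change was 0.58 with an adjusted p of 0.276 (edgeR), nor without HHQ 1 replicate 1, HHQ 1 replicate 2 or HHQ 100 replicate 4. Over 17 alternatives its adjusted p ran from 4.47e-05 to 0.276, and 10 of them kept the call.

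Neither gene passed the test between HHQ 100 and HHQ 10 at 24 h. The log2 fold change of HHQ 100 against HHQ 10 was −0.19 ± 0.26 for PYC1 (edgeR, adjusted p = 0.646) and −0.38 ± 0.43 for IDH1 (edgeR, adjusted p = 0.572). The libraries overlapped for both genes. With library totals, which moved the median of all genes to 0.592, the values turned to 0.395 for PYC1 and 0.223 for IDH1 without passing (edgeR, adjusted p = 0.365 and 0.713), and within replicates 1 to 3 PYC1 was at 0.017. At this step 18.7% of all genes passed the threshold, or 4947, and a fit that blocks by replicate number, whose pairing held here, called 9273 without either of the pair. HHQ 100 replicate 3 held the highest PYC1 and IDH1 values of any library at 24 h, and without it the fold changes were −0.59 and −0.91.

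At 72 h both genes stood above vehicle in HHQ 10 and in HHQ 100. The rule used vehicle and HHQ 100 at 72 h, so nothing is read from the size of the step between 10 and 100 ng/ml. PYC1 had 3.21, 3.40, 2.55 and 2.91 CPM in HHQ 10 and 39.2, 38.0, 53.8 and 62.4 CPM in HHQ 100, and no library of either group overlapped vehicle. Against vehicle the log2 fold change was 1.5 ± 0.30 in HHQ 10 and 5.50 ± 0.29 in HHQ 100. IDH1 had 4.96, 10.4, 5.39 and 8.38 CPM in HHQ 10 and 41.7, 38.9, 58.3 and 82.9 CPM in HHQ 100, again with no overlap with vehicle. Its log2 fold changes were 1.29 ± 0.45 and 4.21 ± 0.44. Genes higher in every treated library than in every vehicle library made up 2.92% of all genes in HHQ 10 and 21.1% in HHQ 100, and the HHQ 100 contrast was used by the rule. For both genes replicates 3 and 4 of HHQ 100 were above replicates 1 and 2.

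The HHQ 10 cultures also exceeded HHQ 1 at 72 h. Neither range overlapped, and the log2 fold changes were 1.02 ± 0.31 for PYC1 and 1.48 ± 0.47 for IDH1. Neither passed the adjustment over all genes, with an edgeR adjusted p of 0.159 for PYC1 (0.00247 unadjusted) and 0.191 for IDH1 (0.00372 unadjusted). Only 0.653% of all genes passed here, whereas 2.78% had every HHQ 10 library above every HHQ 1 library. Same-numbered libraries deviated together in this pair of groups, and a fit that blocks by replicate number gave an adjusted p of 0.00322 for IDH1 (log2 fold change 1.53) and 0.0774 for PYC1 (1.04; edgeR). Over the 16 alternatives, the IDH1 adjusted p ran from 0.00322 to 0.845.

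HHQ 100 at 72 h did not bring either gene back to the parent level. PYC1 reached 24.6% of the parent mean and IDH1 10.5%, with log2 fold changes against parent of −2.02 ± 0.26 and −3.26 ± 0.43 and no overlap. Every library lower than every parent library was found for 16.3% of all genes. PYC1 was higher at 72 h than at 24 h in HHQ 100, by 2.38 ± 0.26 log2 units without overlap. IDH1 was 1.37 ± 0.43 log2 units higher, with overlap through replicate 3 at 24 h. Genes with every library higher at 72 h made up 8.72% of all genes.

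Both genes had lower means at 72 h than at 24 h in HHQ 10 and in HHQ 1, as they also had in vehicle. Vehicle means were 2.11 CPM at 24 h and 1.06 CPM at 72 h for PYC1, and 8.20 and 3.00 CPM for IDH1. Whether the falls at the lower doses differed from those in vehicle was not tested. In HHQ 10 PYC1 fell by 1.82 log2 units between 24 and 72 h (SE 0.27, edgeR, adjusted p = 3.04e-05) and IDH1 fell by 1.94 (SE 0.43, edgeR, adjusted p = 0.00368). No library at 72 h overlapped those at 24 h for either gene. Of all genes 12.3% passed in this comparison, 7.01% as lower, and PYC1 and IDH1 ranked 651 and 566 from the lowest fold change. Both calls held under all 20 alternatives. In HHQ 1 IDH1 fell by 1.93 log2 units (SE 0.47, edgeR, adjusted p = 0.0125), whereas the log2 fold change of PYC1 was −0.76 ± 0.31 (edgeR, adjusted p = 0.174). There 5.2% of all genes passed, 2.36% as lower, and the libraries overlapped for both genes.

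That IDH1 call in HHQ 1 was lost without HHQ 1 replicate 3 or 4 at 24 h or replicate 1 at 72 h, and its adjusted p ran from 0.000122 to 0.11 over 20 alternatives (edgeR and DESeq2). Whether the difference between HHQ 10 and HHQ 1 changed between the times was tested as an interaction, 72 h minus 24 h. The estimate was −1.05 ± 0.42 log2 units for PYC1 (edgeR, adjusted p = 0.192) and −0.0029 ± 0.64 for IDH1 (edgeR, adjusted p = 1), and 2.14% of all genes passed.

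Ordered by their means, the 9 groups ran alike for the pair at the top and differed lower down. The rule chose both genes on their levels in parent, vehicle and HHQ 100 at 72 h. Nothing is therefore read from the places of those groups. PYC1 was highest in parent (197 ± 9.12 CPM, SD, n = 4), then in HHQ 100 at 72 h (48.4 ± 11.8). HHQ 10 (10.7 ± 2.85) and HHQ 100 (9.33 ± 4.45) at 24 h followed and overlapped each other. From there HHQ 10 at 72 h (3.02 ± 0.368), HHQ 1 at 24 h (2.48 ± 1.14), vehicle at 24 h (2.11 ± 0.319), HHQ 1 at 72 h (1.54 ± 0.572) and vehicle at 72 h (1.06 ± 0.121) each overlapped the next in the order.

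IDH1 was likewise highest in parent (530 ± 32.2 CPM) and then in HHQ 100 at 72 h (55.4 ± 20.2), neither of which overlapped the next group in the order. HHQ 10 (27.9 ± 8.43), HHQ 100 (21.5 ± 14.1), HHQ 1 (9.99 ± 6.16) and vehicle (8.20 ± 4.24) at 24 h formed a run of overlapping neighbours that reached HHQ 10 at 72 h (7.29 ± 2.59). Vehicle (3.00 ± 1.08) and HHQ 1 (2.63 ± 1.01) at 72 h came last and overlapped.

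The coefficient of variation over 4 libraries was larger for IDH1 than for PYC1 in every group at 24 h, by unequal amounts and with no test. In HHQ 1 it was 61.6% for IDH1 and 45.9% for PYC1, in HHQ 10 30.2% and 26.8%, and in HHQ 100 65.6% and 47.7%. In vehicle it was 51.7% for IDH1 and 15.2% for PYC1, and in the parent cultures 6.08% and 4.63%. In vehicle, HHQ 1, HHQ 10 and HHQ 100 at 24 h, replicates 3 and 4 each held more IDH1 than replicates 1 and 2. The same order held at 72 h in vehicle, HHQ 1 and HHQ 100, but not in HHQ 10. What these replicates share is not stated in the labels, and its part in the result was not tested.

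Within a library the ratio of the genes' counts needs no scaling between libraries. It also differs with gene length, so its changes between groups can be read but its size cannot. PYC1 counts per 100 IDH1 counts were 38.5 ± 2.14 in HHQ 10 at 24 h (SD, n = 4) and 37.2 ± 1.196 in the parent cultures. They were 89.8 ± 9.94 in HHQ 100 at 72 h, with 94.2, 97.6, 92.3 and 75.3 in replicates 1 to 4, all above the 4 vehicle libraries at 72 h (23.3 to 55.6). The remaining groups at 24 h had means of 30.99 to 48.9 and wide ranges, from 12.4 to 69.8 over their libraries. HHQ 1 at 72 h, with as few as 9 and 13 counts of the genes, ran from 34.6 to 113.

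The table holds a second gene named for each enzyme, PYC (EMIHUDRAFT_456927) and IDH2 (EMIHUDRAFT_632221), and these differed from each other in whether they moved with the pair. IDH2 followed the pair at smaller size in parent, vehicle and HHQ 100 at 72 h, the cultures that chose the pair. In the dose and time comparisons tested for the pair, IDH2 did not pass. Against HHQ 1 at 24 h its log2 fold change was 0.40 in HHQ 10 and 0.69 in HHQ 100 (edgeR, adjusted p = 0.361 and 0.0679). In HHQ 10 the change from 24 to 72 h was −0.49 (edgeR, adjusted p = 0.315). IDH2 held 59.6, 52.0, 52.5 and 67.1 CPM in HHQ 100 at 72 h, against 6.27, 15.3, 13.7 and 15.97 CPM in vehicle at 72 h. IDH2 rose there by 2.17 ± 0.32 log2 units without overlap (edgeR, adjusted p = 3.88e-06). In vehicle at 24 h it held 11.7, 13.5, 26.04 and 27.6 CPM, against 99.0, 88.1, 85.7 and 80.7 CPM in parent, a log2 fold change of −2.16 ± 0.32 without overlap (edgeR, adjusted p = 5.02e-06).

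HHQ 100 at 72 h left IDH2 at 65.4% of the parent mean, a log2 fold change of −0.61 ± 0.31 against parent (edgeR, adjusted p = 0.137). At 24 h IDH2 rose by 0.81 ± 0.32 in HHQ 100 relative to vehicle (edgeR, adjusted p = 0.0413), with overlapping libraries. This call did not hold with DESeq2 (adjusted p = 0.0591), with its size factors in edgeR (adjusted p = 0.07), without the filter, in a fit of only the groups compared, without replicate 1 or replicate 3 of every 24 h group, or without vehicle replicate 1 or 2 or HHQ 100 replicate 2, 3 or 4. Over 17 alternatives its adjusted p ran from 0.000146 to 0.166. IDH2 counts per 100 IDH1 counts were 251 ± 29.4 in vehicle at 24 h, against 16.7 ± 0.595 in parent (SD, n = 4). They were 112 ± 30.96 in HHQ 100 at 72 h, against 429 ± 73.1 in vehicle at 72 h. The IDH1 share of the IDH1 and IDH2 counts was thus larger in HHQ 100 than in vehicle at 72 h in every library. The rule chose IDH1 for its levels in parent, vehicle and HHQ 100 at 72 h, so nothing is read from these ratios.

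PYC did not share the pattern. It was higher in vehicle at 24 h, with 190, 210, 139 and 121 CPM, against 44.5, 67.4, 66.6 and 79.8 CPM in parent. PYC thus rose by 1.35 ± 0.24 log2 units without overlap (edgeR, adjusted p = 7.23e-05) in the comparison where PYC1 was 93.8-fold lower. In vehicle cultures PYC fell by 0.92 log2 units between 24 and 72 h (SE 0.24, edgeR, adjusted p = 0.0173), a call that ended without vehicle replicate 1 at 72 h, within replicates 3 and 4 at 72 h, and in a fit of only the groups compared. In HHQ 100 at 72 h PYC had 108, 92.3, 182 and 174 CPM, against 79.1, 83.1, 85.5 and 102 CPM in vehicle. It rose by 0.67 ± 0.24 (edgeR, adjusted p = 0.024) with overlap, since replicates 3 and 4 were the high ones and replicate 2 lay within the vehicle range. Within replicates 1 and 2 the log2 fold change was 0.35 (edgeR, adjusted p = 0.446, the highest of 16 alternatives, whose lowest was 0.000214), and leaving out either vehicle replicate 1 or 2 or HHQ 100 replicate 3 or 4 also ended the call, as did a fit of only the groups compared.

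**Figure D2:**
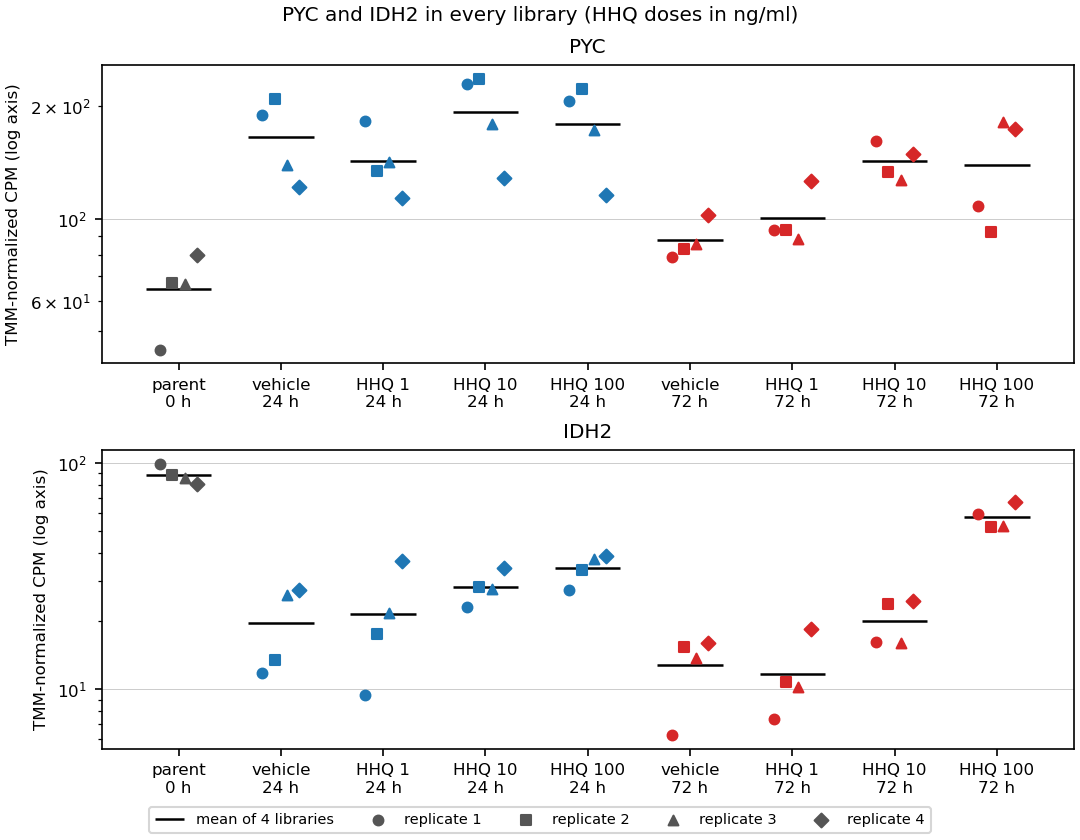
TMM-normalized CPM of PYC (top) and IDH2 (bottom) on log axes in each of the 36 libraries, with 1 symbol per replicate number and a bar at the mean of 4 libraries; blue is 24 h, red 72 h and grey time 0. IDH2 was highest in parent (88.4 CPM on average) and next in HHQ 100 at 72 h (57.8), whereas PYC was lowest in parent (64.6).

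**Figure D3:**
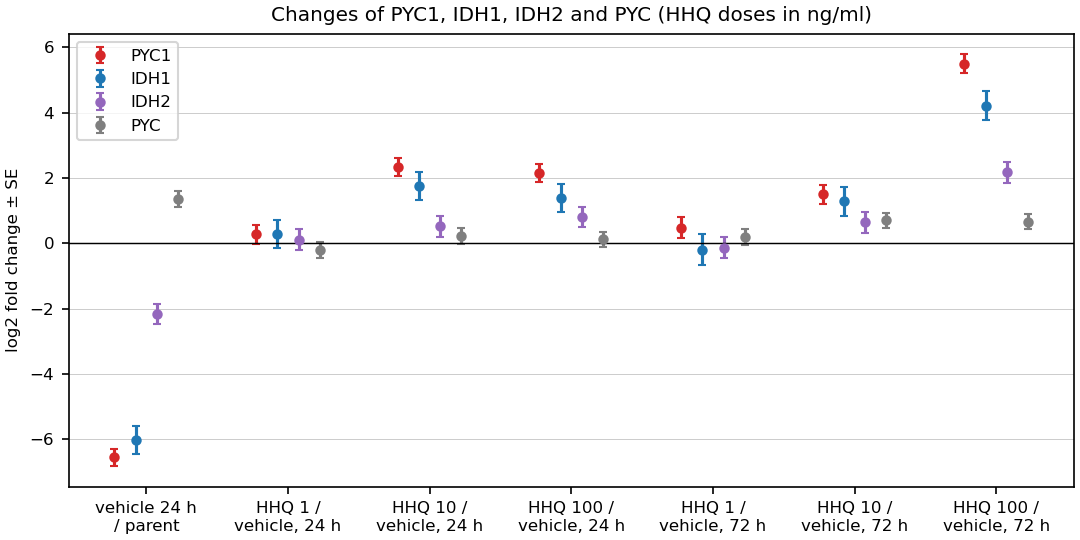
Log2 fold change ± SE (4 libraries per group) of PYC1, IDH1, IDH2 and PYC in 7 comparisons, with HHQ doses in ng/ml. PYC1, IDH1 and IDH2 were lower in vehicle at 24 h than in parent, where PYC was higher, and in HHQ 100 against vehicle at 72 h PYC1 lay at 5.50, IDH1 at 4.21, IDH2 at 2.17 and PYC at 0.67.

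The other genes of pyruvate, TCA cycle and related carbon metabolism moved in both directions. A list of symbols for these reactions matched 20 genes beside PYC1 and IDH1, with IDH2 and PYC among them, and 17 passed the filter; CS1, NAD-ME_3 and SDH1 did not. In HHQ 100 against vehicle at 72 h, 6 of the 17 rose and 5 fell (64.7% called), where 46.2% of all genes were called. The median log2 fold change of the 17 was 0.13, and that of all genes 0.04. Library-total scaling moved the median of all genes to 1.17, and 13 of the 17 were then higher and 2 lower. Without HHQ 100 replicate 3, or without replicate 4, 7 of the 17 were called.

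Among the TCA cycle genes FH, which names fumarate hydratase, rose in HHQ 100 at 72 h to 18.5 CPM, against 4.98 CPM in vehicle, a log2 fold change of 1.89 ± 0.16 (edgeR, adjusted p = 2.03e-10). FH also rose in HHQ 10 at 24 h (1.49 ± 0.16), HHQ 100 at 24 h (1.60 ± 0.16) and HHQ 10 at 72 h (0.75 ± 0.16), and it fell by 0.96 log2 units (SE 0.16) in vehicle at 24 h relative to parent. These FH calls held under every alternative except in HHQ 10 at 72 h, where 8 of 16 ended the call: leaving out HHQ 10 replicate 1 or 4 or vehicle replicate 3 or 4, either replicate set, library totals, and a fit of only the groups compared. CS2 and CS3, which name citrate synthases, had log2 fold changes of 0.13 and 0.42 in HHQ 100 at 72 h, and neither passed. CS2 and CS3 rose in vehicle at 24 h relative to parent, by 1.27 ± 0.17 and 1.06 ± 0.19, where the pair was lower. With library totals CS3 did not pass there (0.776).

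PEPCK_1 and PEPCK_2 are copies named for phosphoenolpyruvate carboxykinase, which uses oxaloacetate. In HHQ 100 at 72 h they held 102 and 715 CPM, below the 324 and 2687 CPM in vehicle. Their log2 fold changes were −1.66 ± 0.29 and −1.91 ± 0.34 (edgeR, adjusted p = 4.93e-05 and 6.30e-05). Their values were whole in 0 of 36 libraries, as were those of CS2, CS3, ACC-2, DLD1, DLD2 and GLT8. ACC-3 had whole values in 1, ICL1 in 10 and LDH1 in 28 of the 36 libraries. Reads that any of these genes shares with copies may have been divided, and each of these values is uncertain. ICL1, named for isocitrate lyase, which splits isocitrate, held 445 CPM in HHQ 100 at 72 h, against 1213 CPM in vehicle. It was lower by 1.45 log2 units (SE 0.19, edgeR, adjusted p = 6.88e-07). With library totals the PEPCK genes stayed lower and called at 72 h, and ICL1 stayed lower without passing (−0.40). Between 24 and 72 h PEPCK_1, PEPCK_2 and ICL1 rose in vehicle by 1.55, 1.60 and 1.26 log2 units, each with a call. PEPCK_1 and ICL1 also rose between the times in HHQ 100, by 1.04 and 0.77, whereas PEPCK_2 (1.03) did not pass. Those HHQ 100 calls held in 11 and 16 of 20 alternatives.

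Of the other biotin carboxylase genes, ACC-3, named for acetyl-CoA carboxylase, rose in HHQ 100 at 72 h to 23.04 CPM, against 5.23 CPM in vehicle, by 2.14 ± 0.50 log2 units (edgeR, adjusted p = 0.00132). ACC-1 and ACC-2 had log2 fold changes of 0.23 and −0.03 there, and rose by 2.16 ± 0.22 and 2.73 ± 0.25 in vehicle at 24 h relative to parent. NAD-ME_1, which names an NAD-dependent malic enzyme, rose by 0.70 ± 0.15 and LDH1, which names a lactate dehydrogenase, by 0.64 ± 0.25 in HHQ 100 at 72 h. DLD1 and GLT8 were lower by 0.67 (SE 0.25) and 0.69 (SE 0.26). With library totals DLD1 turned to 0.50 and was called as higher (edgeR, adjusted p = 0.000877). GLT8 turned to 0.40 there without passing (edgeR, adjusted p = 0.326). The LDH1 call ended without HHQ 100 replicate 3 or 4 or vehicle replicate 1, 3 or 4 and within replicates 1 and 2. The DLD1 call ended without HHQ 100 replicate 3 or 4 or vehicle replicate 1 or 2, within replicates 3 and 4, without the filter and with only the groups compared. The GLT8 call held only without vehicle replicate 1 among the 8 libraries, and it also ended within replicates 1 and 2, without the filter and with only the groups compared.

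Counts in the remaining comparisons with vehicle followed the dose, as did the share of all genes called. In HHQ 100 at 24 h 4 of the 17 rose and 5 fell (52.9% called), against 41.1% of all genes. With library totals 10 were higher and 1 lower. In HHQ 10 at 24 h 2 rose and 3 fell (29.4% called), against 11.8% of all genes. These were 3114 genes, or 5479 with the replicate block, whose pairing held there. The number of the 17 called was 2 without HHQ 10 replicate 1 or 2, and 3 without HHQ 10 replicate 3 or vehicle replicate 1, 3 or 4. In HHQ 10 at 72 h FH alone rose (5.88% called), against 0.947% of all genes. With the replicate block, whose pairing held there, 4 of the 17 were called. In HHQ 1 none passed at either time and the share of all genes called was 0%. There edgeR gave 1 of the 17 an unadjusted p under 0.05 at 24 h and 0 at 72 h, and DESeq2 called none of the 17 at either time.

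In vehicle at 24 h relative to parent, 7 of the 17 rose and 4 fell, against 18.9% of all genes called, with a median log2 fold change of 0.35 for the 17 and 0.08 for all genes. With library totals 6 were higher and 6 lower, as PEPCK_1 and PEPCK_2 joined the lower ones. NAD-ME_1, at 0.50 one of the 7 that rose, kept its call in 8 of 17 alternatives. The 4 that fell were FH, ICL1, IDH2 and LDH1. Of these, FH, IDH2 and LDH1 were higher in HHQ 100 than in vehicle at 72 h, whereas ICL1 was lower there too. The LDH1 call against parent ended without parent replicate 1, vehicle replicate 1 or 2 or replicate 1 of every 24 h group, and with only the groups compared.

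**Figure D4:**
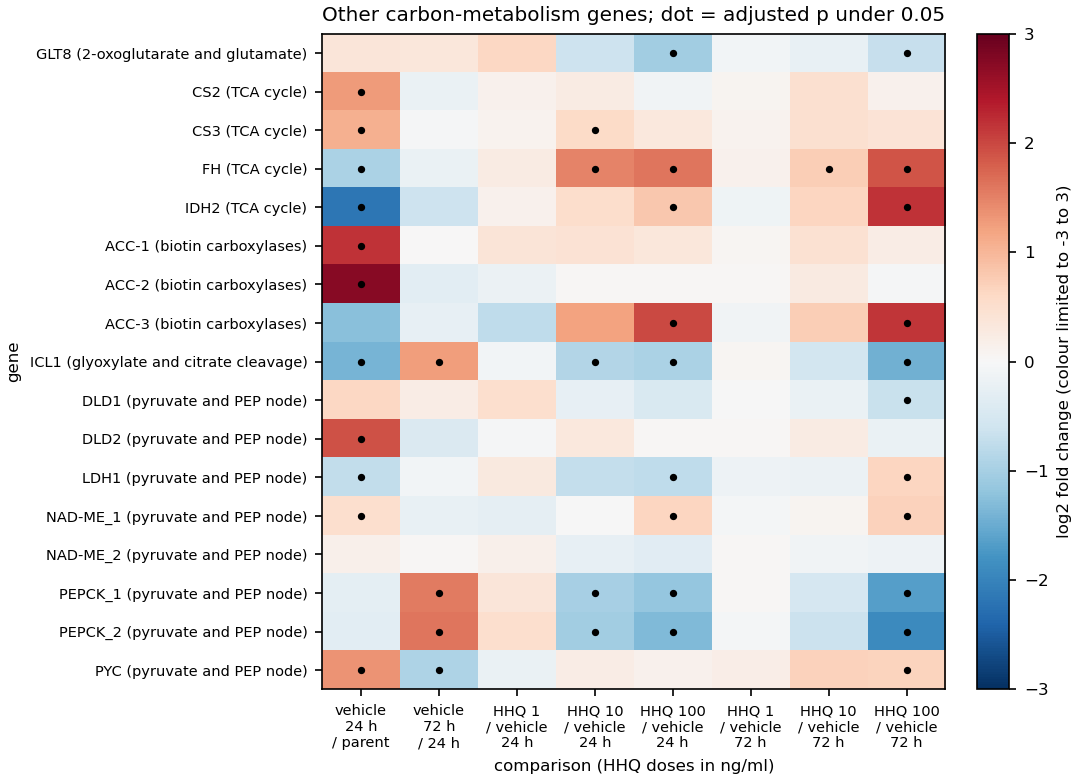
Log2 fold changes of the 17 other tested genes of the list (vertical axis) in 8 comparisons (horizontal axis, HHQ doses in ng/ml), coloured from blue (lower) to red (higher); a dot marks an adjusted p under 0.05 (edgeR). In the column for HHQ 100 against vehicle at 72 h, 6 genes are marked as higher and 5 as lower, and the HHQ 1 columns hold no dot.

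The genes whose pattern was most like that of PYC1 and IDH1 were looked for by the Pearson correlation of the 9 group means of log2 CPM, among the 660 other tested genes with a symbol. For PYC1 the top 4 were IDH2 (r = 0.98), IDH1 (0.979), RFC2 (0.976) and MAN1 (0.964). For IDH1 the top 5 were PYC1 (0.979), IDH2 (0.97), ALDH10 (0.96), 16PFK1 (0.959) and TYMK (0.956). The 9 points share libraries and scaling with every gene, and these values are descriptions. The rule chose PYC1 and IDH1 for the same pattern, so their likeness to each other was in part set by that choice. RFC2 names a subunit of the clamp loader of DNA replication, TYMK thymidylate kinase and ALDH10 an aldehyde dehydrogenase. PYC had r = −0.29 with either gene.

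Of the 26493 other tested genes, 121 had an r of at least 0.95 with PYC1 and 94 with IDH1, of which 7 and 6 carried a symbol. The pair was each other's neighbour at rank 12 for PYC1 and rank 8 for IDH1 among all genes. Since the rule chose both for a shared pattern, nothing is read from these ranks. Over the 36 libraries, Spearman's rank correlation between PYC1 and IDH1 was 0.917, and IDH1 was closer to 16PFK1 (0.965) and IDH2 (0.959).

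The other genes were picked for a shape like that of the pair, and the depths of the profiles are given as descriptions. The rule set a deep fall of the pair in vehicle, so nothing is read from that depth. In mean log2 CPM relative to parent, vehicle at 24 h stood at −6.49 for PYC1, −6.15 for IDH1 and −6.46 for RFC2, but at −2.25 for IDH2. HHQ 100 at 72 h stood at −2.05 for PYC1 and −3.32 for IDH1, at −2.40 for RFC2, and at −0.61 for IDH2. RFC2, MAN1 and TYMK were listed at 0 in at least 1 library, so their low points rest on few reads. Values were whole in 0 of 36 libraries for ALDH10, 4 for MAN1, 5 for RFC2 and 20 for TYMK. Reads shared with copies may have been divided there too.

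**Figure D5:**
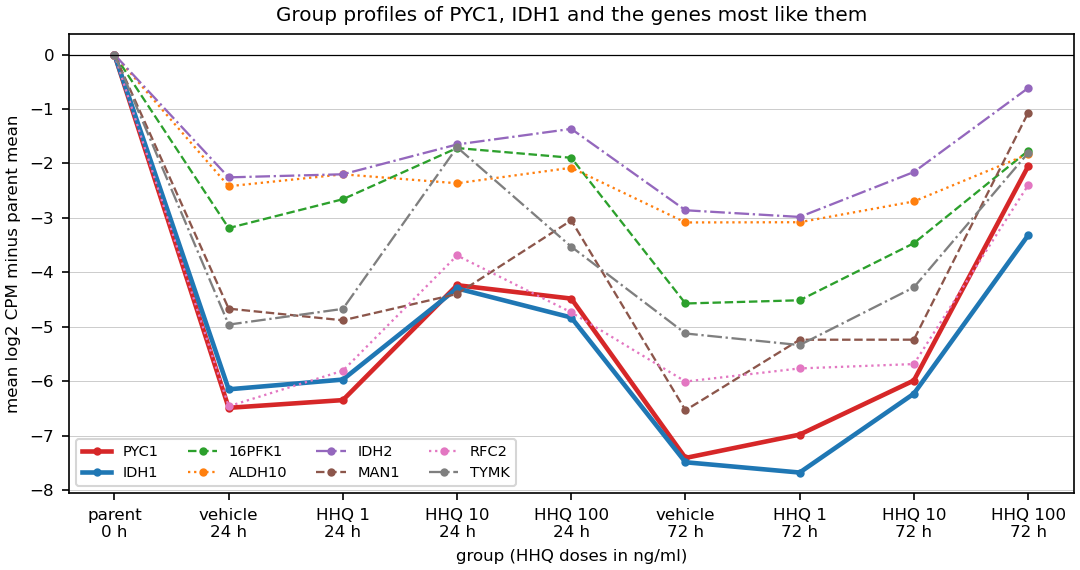
Mean log2 CPM of each of the 9 groups minus the parent mean for PYC1 and IDH1 (thick lines) and 6 other genes among the 5 most like either (thin broken lines), with groups on the horizontal axis (HHQ doses in ng/ml) and lines joining groups only to guide the eye. All 8 profiles were below parent in vehicle and highest among the 72 h groups in HHQ 100. For the pair the rule set this shape, and the other genes were picked by their likeness to it.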

How the data were processed

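Stranded libraries were made from polyadenylated RNA of 36 cultures, per the labels' protocols. Trimmomatic 0.38 and Salmon 0.12.0 were used, per the submitters' processing notes; which reference transcripts is not given in the sources used here. Estimated counts per gene, as deposited by the authors, were rounded to whole numbers. Every value column matched a sample by name. Symbols and locus tags came with the RefSeq gene table of strain CCMP1516, which holds 37202 of the 37212 identifiers. The cultures are named as CCMP2090. A chi-square test of counts gave 5.61 to 211 per gene for pairs of replicates within groups, so none was treated as a repeat.

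Genes were filtered with filterByExpr and scaled with TMM factors. A quasi-likelihood F test (edgeR 4.0.16, limma 3.58.1, R 4.3.3) used 1 fit with a mean per group, two-sided, with Benjamini-Hochberg adjustment over 26494 genes and a threshold of 0.05. SEs are Wald errors of that fit. Log2 CPM used a prior count of 2. Scripts were tested on simulated data. DESeq2 1.42.0, other scalings, no filter, replicate blocks, subsets and left-out libraries served as alternatives. Libraries of the same number were taken as pairs where deviations from the group means correlated above 0.1 in every pair. This held for HHQ 10 against HHQ 1 (r of 0.214 to 0.422), HHQ 10 against vehicle (0.201 to 0.438) and HHQ 1 against vehicle (0.284 to 0.445) at 72 h. At 24 h it held for HHQ 100 against HHQ 10 (0.12 to 0.422) and HHQ 10 against vehicle (0.174 to 0.5). What a number marks is not stated.

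The genes and the pathway list were chosen with earlier results of these data known. Named beside the pair are all genes of that list and, for each member, the 5 genes with a symbol of highest correlation over the group means, of which 1 is not reported here. The list was matched on symbols alone, hyphens ignored; GLT8 was matched by its letters. Protein similarity and product names, also planned, were not used here.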

Additional observations from a re-analysis of the deposited data

Results flagged for a closer look

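IDH2 in vehicle at 72 h had replicate 1 apart from its group mates: it held 6.27 CPM, and the nearest library 13.7 CPM. On the log2 scale this gap was 0.839 of the group's range, above Dixon's critical value for 4 samples. PYC in HHQ 1 at 72 h had replicate 4 apart, with 126 CPM and a nearest library at 93.1 CPM, a gap of 0.844 of the range. These were the 2 cases among 36 sets of 4 libraries examined for PYC1, IDH1, IDH2 and PYC, and chance gives about 1 in 20. No set of PYC1 or IDH1 was among them. The IDH2 call in HHQ 100 against vehicle at 72 h held without each library in turn, with log2 fold changes of 1.94 to 2.29.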

How the results depend on the processing

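For the 3 calls of PYC1 among the tested comparisons, every alternative kept the call. For the pair together, 611 of the values recomputed under an alternative kept their direction and their side of the threshold or moved by less than the spread between replicates. Another 14 lost a call, 1 gained one, 7 changed sign and 13 moved by more than that spread. Of the recomputed counts of called pathway genes 235 stayed within 1.5 times the count given and 37 did not.

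With library totals the log2 fold change of PYC1 and IDH1 was −0.083 and −0.126 for HHQ 1 against vehicle at 24 h (both turned), 3.01 and 2.31 for HHQ 100 at 24 h, 6.70 and 5.36 for HHQ 100 at 72 h, and −1.45 and −2.67 for HHQ 100 at 72 h against parent. PYC1 was at −6.78 in vehicle at 24 h against parent and at −1.36 in vehicle between 72 and 24 h. This scaling moved the median of all genes to 0.873 at 24 h and 1.17 at 72 h for HHQ 100 against vehicle. Against HHQ 1 at 24 h it moved the median to 1.39 for HHQ 100 and 0.738 for HHQ 10. LDH1 in HHQ 100 at 24 h turned to 0.101 and GLT8 at 72 h to 0.401, neither passing. DLD1 at 72 h turned to 0.498 and was then called as higher.

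Within replicates 1 and 2 at 72 h, HHQ 100 against parent gave −2.36 for PYC1 and −3.73 for IDH1, and HHQ 100 against vehicle gave 5.19 for PYC1, or 5.85 within replicates 3 and 4. Without replicate 3 of every 24 h group, a setting chosen after seeing the data, PYC1 was at −0.156 in HHQ 1 and 1.70 in HHQ 100 against vehicle, and IDH1 in HHQ 100 against HHQ 1 lost its call (0.84). So did that IDH1 comparison with DESeq2 size factors (1.01) and with only the groups compared in the fit (1.13). IDH1 in HHQ 1 between 72 and 24 h lost its call with only those groups (−1.94), within replicates 1 to 3 at 24 h (−1.65) and within replicates 3 and 4 at 72 h (−1.58). The replicate block gave IDH1 in HHQ 10 against HHQ 1 at 72 h a call (1.53) and changed no other call of the pair.

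Leaving out a library moved IDH1 from 0.575 to 1.40 in HHQ 100 and from 1.19 to 1.77 in HHQ 10 against HHQ 1 at 24 h, and from −2.27 to −1.64 in HHQ 1 between the times. For HHQ 1 against vehicle it moved IDH1 from −0.003 (without HHQ 1 replicate 4) to 0.583 at 24 h and from −0.493 to 0.027 at 72 h (0.02 without HHQ 1 replicate 1, 0.027 without vehicle replicate 4), and PYC1 from −0.116 (without HHQ 1 replicate 3) to 0.437 at 24 h.

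Of the 17 pathway genes the number called moved to 5 with the replicate block in HHQ 1 between the times, and to 3 within replicates 1 to 3 in HHQ 10 against vehicle at 24 h, with 2 to 5 over left-out libraries. In HHQ 10 against HHQ 1 at 72 h it was 1 with DESeq2 and with the block, and 0 to 1 over left-out libraries. In HHQ 10 against vehicle at 72 h it was 2 with DESeq2, 4 with the block and 0 with library totals, with only the groups compared and within either replicate set, and 0 to 1 over left-out libraries. In HHQ 100 against HHQ 10 at 24 h it was 2 with DESeq2 and with the block and 3 with library totals and with only the groups compared. In HHQ 100 between the times it was 5 with DESeq2 and within replicates 1 and 2, 6 with the block and within replicates 1 to 3 at 24 h, 1 within replicates 3 and 4, and 1 to 6 over left-out libraries. In HHQ 100 against vehicle at 72 h it was 7 to 10 over left-out libraries.

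Over all genes the number called in HHQ 100 against HHQ 10 at 24 h was 4947, with 3154 to 9273 over 7 alternatives. In HHQ 10 it was 6735 against HHQ 1 (6082 to 10503) and 3114 against vehicle (2111 to 5479) at 24 h. Between the times it was 3268 in HHQ 10 (1961 to 7244) and 1378 in HHQ 1 (356 to 3027). The number called in HHQ 10 against HHQ 1 at 72 h was 173, with 6 to 434 over 8 alternatives. Against vehicle it was 251 in HHQ 10 at 72 h (17 to 725), and in HHQ 1 0 at 24 h (0 to 1237, the highest with the block, whose pairing did not hold) and 0 at 72 h (0 to 6). Counts as low as 9 for PYC1 and 13 for IDH1 limit what can be read from the HHQ 1 and vehicle libraries at 72 h.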
